A study of Mus musculus with 6 samples.

Results

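Immediate early genes are transcribed within minutes of a signal, before any new protein is made. The 10 genes described here, of 32227 genes in the count tables, are Fos, Fosb, Jun, Junb, Jund, Egr1, Egr2, Ier2, Dusp1 and Zfp36, taken by symbol and kept whatever their count. Single cell RNA sequencing (PIPseq) was performed on mouse CD8+ T cells of 3 tissues. The thymus and spleen libraries came from unchallenged adult C57BL/6 mice, and the tumor libraries from pooled mice carrying B16-OVA, a melanoma line that expresses ovalbumin, at day 12 after injection. In each tissue, 1 library is labelled Pdcd1fl/fl (flfl below; floxed Pdcd1 and no Cre) and 1 is labelled Pdcd1 cKO (cKO below; the same floxed alleles with E8I-Cre). This Cre, driven by Cd8a sequence, is active in CD8+ T cells after positive selection, so cells before that stage carry an intact gene in both genotypes. Pdcd1 encodes PD-1, an inhibitory receptor of T cells, and the comparison of the labels asks what its loss does to these cells.

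The label was checked against Pdcd1 RNA first. In thymus, Pdcd1 was counted at 12 and 131 UMIs in the libraries labelled flfl and cKO, in spleen at 1 and 104, the first under the floor of 3 counts used below, and in tumor at 702 and 801. Per library size, thymus stood at 1.88 CPM (UMIs over all UMIs of the same cells, times 1e6) in the library labelled flfl and at 6.84 CPM in the library labelled cKO. In spleen the values were 0.45 and 11.7 CPM, and in tumor 183 and 152 CPM. Summed over each library, the RNA was thus higher, not lower, labelled cKO in thymus and spleen, and was not lost in tumor. Such sums also depend on which cells a library holds. Of the 131 Pdcd1 UMIs in thymus labelled cKO, 85 lay in effector-like cluster 5, which held 193 cells of that library and 1 of the library labelled flfl. Spleen cluster 5, also effector-like, held 507 cells labelled cKO and 8 labelled flfl. Effector markers, for their part, were higher labelled cKO by the median log2 ratio in all 3 tissues, at 1.50 in thymus, 1.54 in spleen and 1.45 in tumor. In thymus 5 of the 6 were higher, and Gzma was lower (-1.27). The counts do not say whether the deleted exons are read, so every direction below is between libraries as labelled, not between genotypes that the data show.

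AP-1 is a dimer of a Fos protein with a Jun protein, or of 2 Jun proteins, and it drives genes of activation, survival and cytokine production. In T cells, engagement of the T cell receptor (TCR) activates the ERK and JNK kinases, which switch on Fos, Jun and the zinc finger factors Egr1 and Egr2, while Dusp1 and Zfp36 are induced as brakes on the same response. The same genes are also known to be induced by cutting, enzyme digestion and handling of tissue, so their RNA alone does not tell one stimulus from the other.

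Cells with fewer than 500 genes or 1000 UMIs, or with over 20% mitochondrial counts, were dropped. After this the libraries labelled flfl and cKO held 1067 and 2635 cells in thymus, 1478 and 4928 in spleen, and 456 and 561 in tumor. The step kept 21.3% of the 6929 barcodes of spleen labelled flfl and at least 98.5% of the barcodes of each other library. Clusters with markers of melanoma cells or of macrophages were left out of the tumor libraries, which leaves 287 and 469 cells. The total counts were 6389966 and 19143524 UMIs in thymus, 2220981 and 8923997 in spleen, and 3834198 and 5261863 in tumor, and the median cell held 4361, 5417, 1320.5, 1615, 11027 and 9107 UMIs in the same order. Only the spleen libraries shared barcodes, 2 of them, and neither passed the filter. CD8 T cell markers were present in all 6 libraries, with all 7 of Cd8a, Cd8b1, Cd3e, Cd3d, Cd3g, Trac and Trbc2 read and a summed level between 3833 and 6219 CPM. With 1 library per group there is no replicate error and no test, and the 95% intervals given below (exact Poisson for a level, exact binomial for a ratio or a share) cover counting error only. Values across the 6 libraries are listed throughout as thymus labelled flfl, thymus labelled cKO, spleen labelled flfl, spleen labelled cKO, tumor labelled flfl and tumor labelled cKO.

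The Fos family came first. Fos, the partner that heterodimerizes with Jun proteins, was counted at 741, 1732, 225, 2764, 90 and 54 UMIs, which are 116, 90.5, 101, 309.7, 23.5 and 10.3 CPM. Spleen labelled cKO was the highest and tumor labelled cKO the lowest, 30.2-fold apart, and the intervals of spleen labelled flfl overlapped those of both thymus libraries. Fosb, a second Fos protein, was counted at 344, 1066, 286, 2392, 68 and 50 UMIs (53.8, 55.7, 129, 268, 17.7 and 9.50 CPM). Here both spleen libraries stood above both thymus libraries, whose intervals overlapped, and the tumor libraries were the lowest.

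Among the Jun proteins, which can pair with each other or with Fos proteins, Jun was counted at 426, 2319, 563, 6407, 66 and 54 UMIs (66.7, 121, 253, 718, 17.2 and 10.3 CPM). It spanned the widest range of the 9 genes with counts in every library, 70.0-fold from spleen labelled cKO down to tumor labelled cKO, and only the tumor intervals overlapped. Junb, which can restrain or replace Jun according to its partner, gave 1193, 3701, 1491, 10977, 1134 and 624 UMIs (187, 193, 671, 1230.05, 296 and 119 CPM). It kept a level in tumor labelled flfl above that of both thymus libraries, whose intervals overlapped. Jund, the Jun protein known for broad expression in resting cells, gave 561, 3250, 536, 3186, 522 and 604 UMIs (87.8, 169.8, 241, 357, 136 and 115 CPM). Its highest and lowest libraries were 4.07-fold apart, and its lowest level was in thymus labelled flfl, not in tumor.

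Egr1, a zinc finger activator induced through ERK signaling, was counted at 357, 608, 263, 1509, 28 and 53 UMIs (55.9, 31.8, 118, 169, 7.30 and 10.1 CPM). The spleen libraries were the highest, and the tumor libraries the lowest with overlapping intervals. Egr2, which in T cells is tied to TCR signal strength and to tolerance, was rare, at 7, 37, 23, 60, 2 and 0 UMIs (1.10, 1.93, 10.4, 6.72, 0.52 and 0 CPM). Both spleen libraries lay above both thymus libraries, but within spleen, within thymus and within tumor the intervals overlapped, and no tumor fold is given because both counts were under 3.

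Of the remaining genes, Ier2, a nuclear protein of the early response, was counted at 290, 1065, 604, 3257, 142 and 144 UMIs (45.4, 55.6, 272, 365, 37.0 and 27.4 CPM). Dusp1, a phosphatase that inactivates JNK, p38 and ERK, gave 406, 1478, 366, 3322, 135 and 109 UMIs (63.5, 77.2, 165, 372, 35.2 and 20.7 CPM), with no overlap between neighbours in its order. Zfp36, tristetraprolin, which binds AU-rich elements and speeds the decay of cytokine mRNA, gave 291, 778, 342, 4478, 88 and 83 UMIs (45.5, 40.6, 154, 502, 23.0 and 15.8 CPM), and the libraries within thymus and within tumor overlapped. Of the 10 genes, 9 were highest in spleen labelled cKO, Egr2 being the exception, and 8 were lowest in tumor labelled cKO, the exceptions being Jund and Egr1. Summed, the 10 genes made up 722, 838, 2116, 4298, 593 and 337 CPM.

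**Figure D1:**
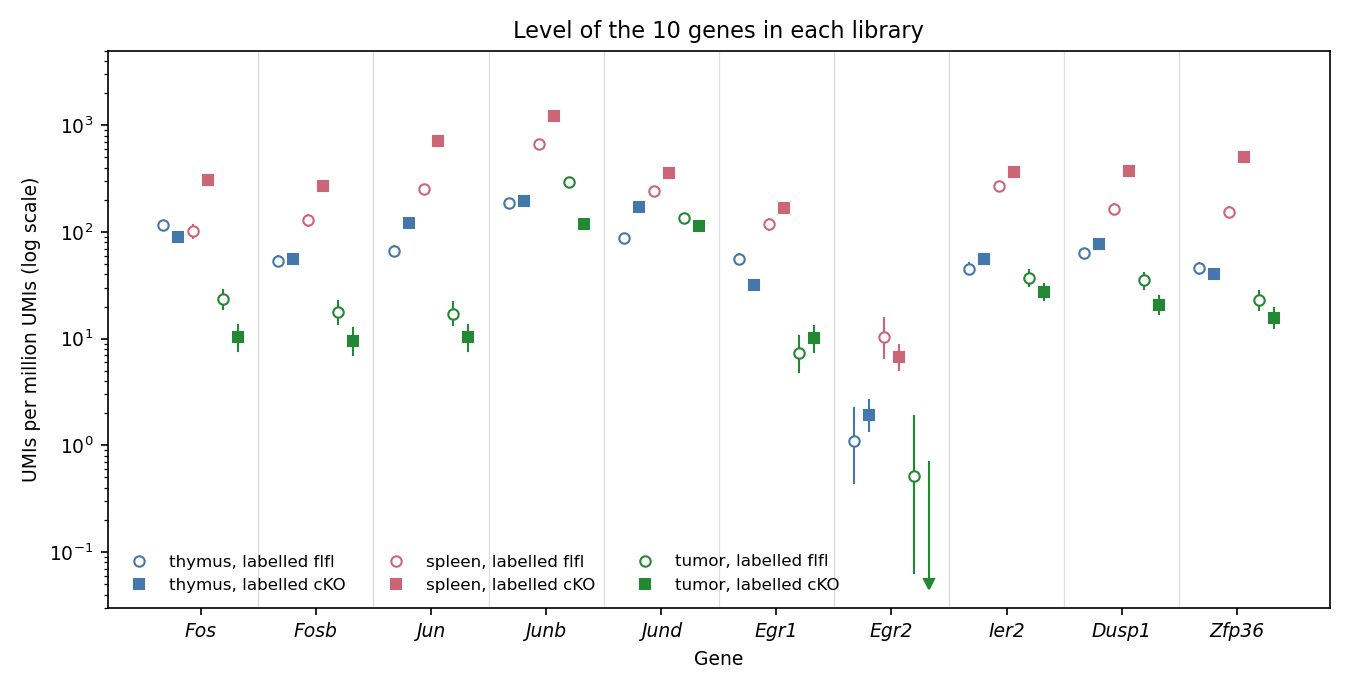
CPM (log scale) of each of the 10 genes in the 6 libraries, with bars for exact Poisson 95% intervals of counting error; spleen labelled cKO is the highest for 9 of the 10. Open circles are libraries labelled flfl, filled squares those labelled cKO, and the triangle on the lower edge is Egr2 in tumor labelled cKO, at 0 UMIs.

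The clearest difference between the labels was in spleen, where 9 of the 10 genes were higher in the library labelled cKO, as Pdcd1 itself was. Zfp36 was higher by 1.70 on the log2 scale (1.55 to 1.87), Fos by 1.61 (1.42 to 1.81), Jun by 1.50 (1.38 to 1.63), Dusp1 by 1.18 (1.02 to 1.34) and Fosb by 1.06 (0.88 to 1.24). These 5 of 10 were at least 2-fold higher and none was 2-fold lower, against 5.07% of 7843 genes (those with at least 100 UMIs in the 2 libraries) at least 2-fold higher and 0.676% at least 2-fold lower. Junb (0.87), Jund (0.56), Egr1 (0.51) and Ier2 (0.42) were higher by less, and Egr2 had a log2 ratio of -0.62 with an interval from -1.34 to 0.14. With no cell filter Egr2 was at 0.064. The CD8 T cell markers, higher by a median of 0.55 with 6 of 7 above 0 (5177 against 3833 CPM), differed by about as much as Jund, Egr1 and Ier2. The median of the 10 log2 ratios was 0.97, beside 0.17 for all 7843 genes. Scaling moved that background: a total without mitochondrial, ribosomal protein and Malat1 counts shifted the median of all genes by -0.13, and of all genes past 2-fold, 88.2% were higher with the full total, 74.8% with the reduced total and 69.0% after median of ratios scaling. Under these scalings 4 of the 10 genes stayed at least 2-fold higher, and with a stricter cell filter, which leaves 212 cells labelled flfl, 3 did.

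**Figure D2:**
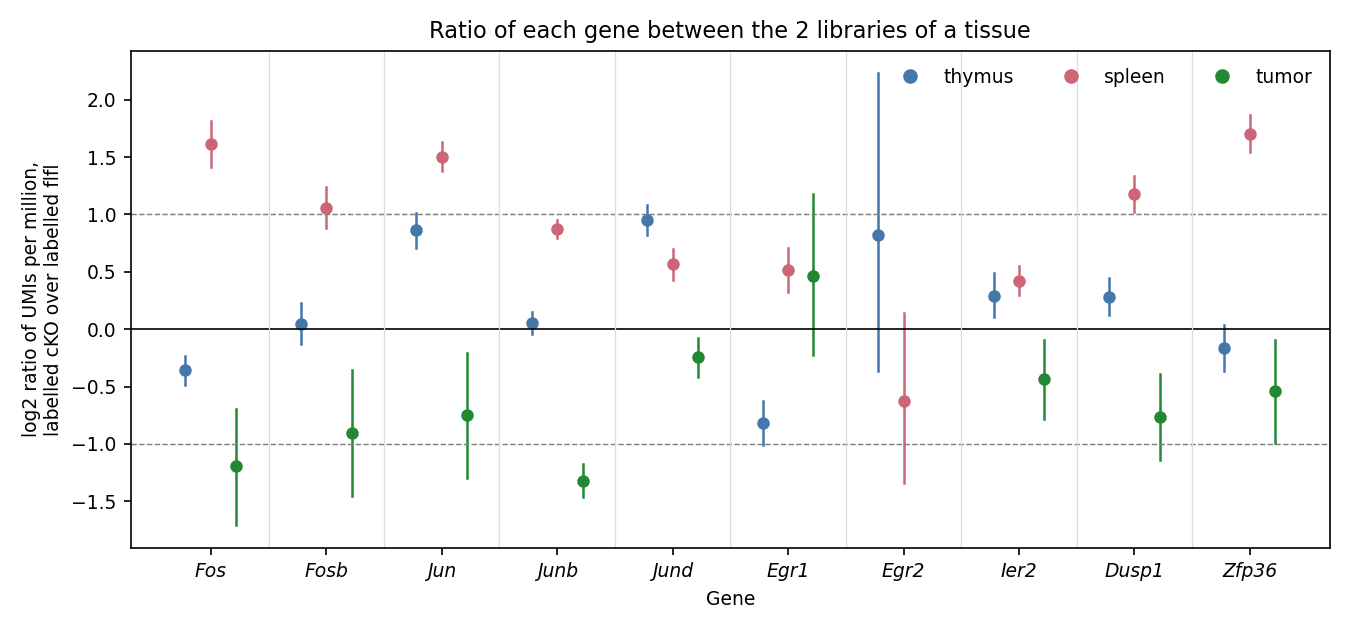
Log2 ratio of CPM, library labelled cKO over library labelled flfl, for each gene in 3 tissues; bars are exact binomial 95% intervals of counting error, dashed lines mark 2-fold, and tumor Egr2 has no ratio. In spleen 9 of the 10 genes lie above 0, and in tumor 8 of the 9 genes with a ratio lie below it.

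The spleen difference was present in each cluster that held at least 20 cells of both libraries. Cells were clustered without the 10 genes and without the pathway lists named below. In these 8 of 14 clusters the median log2 ratio ranged from 0.81 to 1.48, the summed level from 1763 to 2722 CPM in cells labelled flfl and from 3511 to 6330 CPM in cells labelled cKO. Fos, Jun, Junb, Dusp1 and Zfp36 were higher in cells labelled cKO in all 8, Fosb in 7, and Jund, Egr1 and Ier2 in 6. Egr2 had a ratio in 2 of the clusters and was lower in both, and not every interval excluded 0: for Dusp1, 5 of 8 did. Most cells labelled flfl sat elsewhere: cluster 2, unnamed and led by Tafa2, Gpat3, Ppp1r12c, Bmerb1 and Siah1a, held 1043 of them and 0 labelled cKO, so it may be that library and not a cell type. Its summed level, 2104 CPM, lay within the range of the other clusters among cells labelled flfl. Cluster 3, led by Snx29, Ptprj, Ikzf2, Setbp1 and Ptprd, was the highest in both libraries, with 2722 CPM in 58 cells labelled flfl, 6330 CPM in 637 labelled cKO and a median of 7.0% mitochondrial counts.

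Genes of TCR signaling and of tissue handling moved in the same spleen comparison. In it, 5.07% of all genes were at least 2-fold higher and 0.676% at least 2-fold lower. Of 14 other genes known to be induced by the TCR, 4 were at least 2-fold higher in the library labelled cKO, with a median log2 ratio of 0.65 and a summed level of 2227 against 1074 CPM; the orphan receptor Nr4a1 was the highest (1.70), the early activation marker Cd69 was at 1.10 and Egr3 was the lowest (-0.09). Of 10 heat shock chaperones, 8 were at least 2-fold higher, with a median of 1.22 and a sum of 8447 against 3475 CPM, Hspa8 being the most abundant in both. The inducible Hsp70 genes stood apart, Hspa1a at 4.85 and Hspa1b at 4.23 on the log2 scale (592 against 31.5 CPM for Hspa1b), and Hspe1 was the lowest (0.15). Of 13 measured genes of a further dissociation list, which shares no member with the 10, 5 were at least 2-fold higher, with a median of 0.94 and extremes in Ier3 (3.05) and Mcl1 (-0.10), and the list summed to 6909 against 3696 CPM. TCR signaling and dissociation stress cannot be told apart as sources of the difference, because the libraries differ in both sets of genes at once and each label is 1 library.

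Marker genes of other cells also differed between the spleen libraries, beside the 5.07% of all genes at least 2-fold higher. Effector markers summed to 9972 CPM in the library labelled cKO and 5246 CPM in the library labelled flfl, with 5 of 6 at least 2-fold higher and Ccl5 the most abundant. Markers of granulocytes or their progenitors summed to 68.5 against 1.80 CPM, 3 of 5 at least 2-fold higher, with Mpo the most abundant at 27.6 CPM and S100a8 and S100a9 at 0 in both. Spleen cluster 11 (14 cells labelled flfl and 48 labelled cKO), named cycling-like and led by Prtn3, Mpo, Pclaf, Ube2c and Ifitm2, was kept in all spleen values but those without cycling-like clusters. Markers of dendritic cells summed to 67.8 against 5.40 CPM, almost all of it Cd74 (62.2 CPM) and with Flt3 in the other direction (-0.91 on the log2 scale), with Ccl22, Xcr1 and Clec9a at 0 in both. Erythroid markers summed to 19.6 against 0.90 CPM, with Hbb-bs the most abundant. Their part in the result was not tested.

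In thymus the 10 genes moved in both directions between the labels. Jund was higher by 0.95 on the log2 scale (0.82 to 1.08) and Jun by 0.86 (0.71 to 1.01) in the library labelled cKO, while Egr1 was lower at -0.81 (-1.01 to -0.62) and Fos at -0.36 (-0.48 to -0.23). Ier2 (0.29) and Dusp1 (0.28) were slightly higher, and the intervals of Fosb (0.05), Junb (0.05), Zfp36 (-0.16) and Egr2 (0.82, -0.37 to 2.23) included 0. None of the 10 was 2-fold higher or lower, against 3.63% and 4.06% of 10380 genes, and their median was 0.17 beside -0.07 for all genes. The reduced total shifted the median of all genes by 0.15, and the share of higher genes among those past 2-fold was 47.2% with the full total, 68.9% with the reduced total and 57.3% after median of ratios scaling.

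The lower Fos and Egr1 rested on a handful of thymic cells. Thymic cluster 10, unnamed and led by Rarres2, Dcn, Aebp1, Plac9 and Gas6, held 19 cells labelled flfl and 100 labelled cKO, and its summed level of the 10 genes was 14888 CPM in the first, against 546 CPM in the rest of that library, and 3341 CPM in the second, against 767 CPM. With 1.23% of the UMIs of thymus labelled flfl, it held 56.4% of its Fos UMIs (418 of 741) and 68.9% of its Egr1 UMIs (246 of 357). In thymus labelled cKO it held 18.1% of Fos and 27.1% of Egr1 UMIs. Egr2 was at 0 UMIs in this cluster in both libraries.

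Within the cluster, most Fos and Egr1 counts lay in cells with stroma marker RNA. Cells with 2 or more UMIs of the stroma markers Col1a1, Col3a1, Dcn and Pdgfrb numbered 4 of the 19 labelled flfl, which held 412 Fos and 242 Egr1 UMIs, and 6 of the 100 labelled cKO, which held 276 Fos and 147 Egr1 UMIs. Of all UMIs of the 10 genes in the cluster, these cells held 1066 of 1172 labelled flfl and 942 of 1747 labelled cKO. In thymus labelled flfl the cell with the most Fos held 31.4% of the Fos UMIs, and the cell with the most Egr1 held 46.8% of the Egr1 UMIs. In these 4 and 6 cells, stroma markers were at 14328 and 9099 CPM and T cell markers at 694 and 636 CPM, whereas the cluster as a whole had T cell markers at 3481 and 3739 CPM. Over the whole libraries, 8 and 17 cells had 2 or more stroma UMIs. All 4 stroma markers were read in both thymus libraries, at a summed 63.2 CPM labelled flfl and 24.0 CPM labelled cKO, with Dcn the most abundant. Without cluster 10, a choice made after seeing the data, the log2 ratios of Fos and Egr1 were 0.57 and 0.44, the opposite direction, and the median of the 10 genes was 0.41. Without the cells with 2 or more stroma UMIs, also chosen after seeing the data, they were 0.56 and 0.41.

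Other thymic clusters differed too, and the libraries filled them unevenly. In cells labelled flfl, the 10 genes summed to 313 CPM in cluster 12, 339 CPM in cluster 1 (unnamed, 488 cells labelled flfl and 4 labelled cKO) and 546 CPM in cluster 6, and in cells labelled cKO to 383 CPM in cycling-like cluster 4 (7 and 359 cells). The naive-like clusters 0, 9 and 7 stood at 1217, 1186 and 1583 CPM labelled flfl and at 945, 935 and 1632 CPM labelled cKO. Effector-like cluster 8 was at 1024 and 1183 CPM, so its order against clusters 0 and 9 differed between the libraries, and effector-like cluster 5 (1 and 193 cells) was at 1414 CPM labelled cKO. The low clusters 12, 1, 4 and 6 all had more UMIs of Dntt, an enzyme of immature thymocytes, than of Cd8b1, as did clusters 2 (cycling-like) and 3 (immature-like). In the 5 clusters with at least 20 cells of both libraries, the median log2 ratio ranged from -0.59 to 0.23, above 0 in 2 of them. Junb was lower in cells labelled cKO in all 5 (-0.94 to -0.28). Its intervals in clusters 7 (-0.65 to 0.08) and 8 (-0.69 to 0.14) included 0. Without all clusters in which Dntt exceeded Cd8b1, 281 cells labelled flfl and 1409 labelled cKO remained, and the thymic median was -0.61. The log2 ratios of Jun (-0.15), Ier2 (-0.51) and Dusp1 (-0.49) then had the opposite direction. Fos (-1.89) and Egr1 (-2.27) were then at least 2-fold lower, with cluster 10 still included. Without those clusters and without cluster 10 as well, a choice made after seeing the data, the thymic median was -0.12. None of the 10 was then 2-fold higher or lower, and Fos was higher labelled cKO.

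Between the thymus libraries, 3.63% of all genes were at least 2-fold higher labelled cKO and 4.06% at least 2-fold lower. The TCR-induced list had a median log2 ratio of 0.58, with 2 of 14 genes at least 2-fold higher. Xcl1 was the highest (1.75), Cd69 was at 1.23, Nr4a1 at -0.02, and Egr3 was the lowest (-0.30). The list summed to 345 CPM labelled flfl and 549.8 CPM labelled cKO. None of 10 chaperones (median 0.46; Hspa1b 0.78, Hspa1a 0.74, Hspd1 -0.26) and none of 13 measured dissociation genes (median 0.47; Gadd45b 0.92, Atf3 -0.14) was past 2-fold. Neither set was tested as a source of the thymic values. Effector markers summed to 1092 CPM labelled flfl, with Gzma the most abundant, and 1403 CPM labelled cKO, with Ccl5 the most abundant. Of the 6, 4 were at least 2-fold higher and 1, Gzma (-1.27), was at least 2-fold lower. Their part in the thymic result was not tested. Cycling markers were lower labelled cKO, all 5 of 5, with a median of -0.71 and sums of 1188 CPM labelled flfl and 692 CPM labelled cKO, Top2a the most abundant in both. The cycling-like clusters 2 (83 cells labelled flfl and 407 labelled cKO) and 4 (7 and 359) nonetheless held mostly cells labelled cKO. Without these clusters, 977 cells labelled flfl and 1869 labelled cKO remained. The thymic median of the 10 genes was then 0.55, and 3 of the 10 were at least 2-fold higher. This removal took mostly cells labelled cKO. Clusters 1 (488 cells labelled flfl and 4 labelled cKO) and 6 (158 and 16) also had raised Birc5 and Ube2c. They stayed in, because a name needs at least 3 markers, so the value of 0.55 depends on that rule.

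In tumor the direction was the reverse of that in spleen. Of the 9 genes with a ratio, 8 were lower in the library labelled cKO: Junb at -1.32 on the log2 scale (-1.46 to -1.18), Fos at -1.19 (-1.71 to -0.69), Fosb at -0.90 (-1.46 to -0.35), Dusp1 at -0.77 (-1.14 to -0.39), Jun at -0.75 (-1.29 to -0.21), Zfp36 at -0.54 (-0.99 to -0.09), Ier2 at -0.44 (-0.78 to -0.09) and Jund at -0.25 (-0.42 to -0.07). Egr1 was the exception at 0.46, with an interval from -0.22 to 1.18. Junb and Fos, 2 of the 10, were at least 2-fold lower and none was 2-fold higher, against 1.8% of 4999 genes lower and 4.18% higher. The median of the 9 was -0.75 beside 0.08 for all genes. The reduced total shifted the latter by -0.11, and the share of higher genes among those past 2-fold was 69.9% with the full total, 59.7% with the reduced total and 62.6% after median of ratios scaling.

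Junb had the most UMIs of the 10 genes in both tumor libraries, with 1134 of 2275 UMIs labelled flfl and 624 of 1775 labelled cKO, where Jund had 604. Its direction was the same in the 2 T cell clusters with at least 20 cells of both libraries, at -1.04 in unnamed cluster 1 (150 and 65 cells) and -1.23 in naive-like cluster 4 (99 and 32 cells), where the medians of the genes with a ratio were -0.37 and -0.96. The effector-like clusters 0 and 3, which held 242 and 118 cells labelled cKO but 15 and 17 labelled flfl, summed to 328 and 352 CPM in cells labelled cKO, next to 312 CPM in cluster 1 and 489.9 CPM in cluster 4. In cells labelled flfl, clusters 1 and 4 summed to 509.9 and 881 CPM. Naive markers summed to 401 CPM in the cells labelled flfl and 98.4 CPM in those labelled cKO, 3 of 6 at least 2-fold lower with Ccr7 the lowest (-2.44), and effector markers to 2989 and 6540 CPM, 4 of 6 at least 2-fold higher, Nkg7 the most abundant. Of all genes, 1.8% were at least 2-fold lower and 4.18% at least 2-fold higher. The part of these markers in the tumor result was not tested.

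Cells of other lineages in the tumor libraries carried more of these RNAs in sum. In the melanoma-like cluster 2 the 10 genes summed to 1132 and 914 CPM in the libraries labelled flfl and cKO, and Fos stood at 325 and 236 CPM, so the T cells had 7.22% and 4.35% of its level. For Fosb the shares were 8.92% and 5.95%, for Jun 9.27% and 8.29%, and for Junb 182% and 55.4%. Not all genes were higher there: Jund in the T cells was at 122% and 164% and Ier2 at 99.9% and 103% of the level of that cluster. The melanoma markers were in the T cells at 252 and 170.5 CPM, 1.63% and 1.03% of their level in that cluster, next to 5.95, 6.27, 7.20 and 6.95 CPM in the thymus and spleen libraries. All 6 were read in both, with Dct the most abundant labelled flfl and Pmel labelled cKO. The macrophage-like cluster 5 had the highest sum, 2303 and 1631 CPM, and macrophage markers in the T cells were 0.238% and 0.472% of its level. With all filtered tumor cells, the sums of the 10 genes were 944 and 565 CPM. Then 2 genes changed direction between the labels, Zfp36 to a log2 ratio of 0.093 and Egr1 to -0.54. Junb went from -1.32 to -0.52, and was no longer 2-fold lower.

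Between the tumor libraries, 4.18% of all genes were at least 2-fold higher labelled cKO and 1.8% at least 2-fold lower. The TCR-induced list had a median log2 ratio of -0.54. Of its 13 measured genes, 1 was at least 2-fold higher, Irf4 (2.21), and 2 at least 2-fold lower, the chemokine Xcl1 the lowest (-2.15). Nr4a1 was at -0.15 and Cd69 at -0.29, with intervals that included 0. Summed levels were 1751 CPM labelled flfl and 1059 CPM labelled cKO, Tnfrsf9 the most abundant in both. None of 10 chaperones was past 2-fold (median -0.14; Hsph1 0.63, Hsp90ab1 -0.44; Hspa1a 0.20, Hspa1b 0.34), and of 13 dissociation genes 3 were at least 2-fold lower (median -0.08; Klf6 0.71, Socs3 -2.18). Neither list was tested as a source of the tumor values.

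Tissues were compared within a label, with the reservation that the isolation differed for tumor: thymus and spleen cells were enriched with a CD8a+ T cell kit, and tumors were also cut, enzyme-digested at 37 °C, cleared of dead cells and enriched with another CD8 reagent. In comparisons with tumor, tissue and procedure cannot be told apart. Spleen over thymus, 9 of the 10 genes were at least 2-fold higher labelled flfl and 10 of 10 labelled cKO, against 7.95% and 9.62% of all genes; none was 2-fold lower, against 28.4% and 14.7%. The medians were 1.61 and 2.34, beside -0.43 of 7521 genes and -0.11 of 10667 genes. Labelled flfl, Egr2 had the highest ratio (3.24, 1.97 to 4.71) and Ier2 the next (2.58), and Fos was the exception at -0.19 (-0.42 to 0.02), or 0.99 without thymic cluster 10. Labelled cKO, Zfp36 had the highest (3.63, 3.52 to 3.74) and Jund the lowest (1.07). Without the thymic clusters in which Dntt exceeded Cd8b1, the medians were 0.27 and 1.68, and 2 of 10 genes were at least 2-fold higher labelled flfl, with 2 at least 2-fold lower. Without those clusters and without cluster 10, a choice made after seeing the data, Egr2 was at 1.13 labelled flfl and 0.68 labelled cKO. The share of higher genes among all genes past 2-fold was 21.9% labelled flfl, 32.3% with the reduced total and 46.1% after median of ratios scaling, and the reduced total shifted that median by 0.19.

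The dissociation list followed the same tissue order: spleen over thymus, 9 of 13 measured genes were at least 2-fold higher labelled flfl (median 1.40, Gadd45b the highest at 2.84) and 11 of 13 labelled cKO (median 2.38). The TCR-induced list had a median of 1.27 in both labels, with 7 of 13 and 9 of 14 genes at least 2-fold higher, Cd69 the highest (2.93 and 2.80) and Cd200 the lowest (-1.40 and -1.12). Nr4a1 was at 0.82 and 2.54. The chaperone medians were -0.27 labelled flfl and 0.64 labelled cKO, beside -0.43 and -0.11 for all genes. Hspa1a and Hspa1b were at 1.80 and 2.37 labelled flfl and at 5.91 and 5.82 labelled cKO. Of 10 chaperones, 2 were at least 2-fold higher and 3 at least 2-fold lower labelled flfl, and 4 and 0 labelled cKO, with Hspd1 the lowest in both (-2.34 and -0.83). Of all genes, 7.95% were at least 2-fold higher and 28.4% at least 2-fold lower labelled flfl, and 9.62% and 14.7% labelled cKO. The 3 of 10 chaperones lower labelled flfl are near the share of all genes.

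Tumor over spleen, 9 of the 10 genes labelled flfl and 10 of 10 labelled cKO were at least 2-fold lower, against 37.9% of 4834 and 46.8% of 8352 genes, and none was 2-fold higher, against 16.3% and 11.1%. The medians were -2.80 and -4.12, beside -0.38 and -0.86 for all genes. Jund was the least different in both labels (-0.83 and -1.64), and Jun was among the most different, at -3.88 (-4.27 to -3.51) and -6.13 (-6.54 to -5.74). Egr1 was at -4.02 and -4.07, almost the same in the 2 labels, and Fos at -2.11 and -4.92. Egr2 had 2 UMIs in tumor labelled flfl, under the floor of 3 counts, and the interval of its log2 ratio to spleen lay below -2.29. In tumor labelled cKO it had 0, at least 11.8-fold lower than in spleen at that floor. With all filtered tumor cells, the medians were -1.58 and -3.50, and 7 of 10 genes were at least 2-fold lower labelled flfl. Fos labelled flfl was then at 0.98, in the opposite direction, and Fosb labelled flfl at -0.00597, against -2.86 in the T cells. Jun was at -1.16 labelled flfl and -3.92 labelled cKO. Labelled cKO, Fos was at -1.89 and Fosb at -2.26. The share of higher genes among those past 2-fold was 30.1% labelled flfl and 19.1% labelled cKO, and 45.2% and 49.0% after median of ratios scaling.

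The TCR-induced list went both ways between tumor and spleen, and most measured dissociation genes were lower in tumor. Cd69 was at -4.77 and -6.16 and Nr4a1 at -3.27 and -5.12, whereas the TNF receptor family genes Tnfrsf4 (6.49 labelled flfl) and Tnfrsf9 (5.51 labelled cKO), known for later and sustained expression on activated T cells, had the highest ratios of the TCR-induced list. That list had 4 of 13 genes at least 2-fold higher and 7 lower labelled flfl (median -1.28), and 3 of 14 higher and 10 lower labelled cKO (median -2.15). Tnfrsf4 was also a leading gene of tumor cluster 6 (6 cells labelled flfl and 12 labelled cKO). Cd4 was read in 44.4% of the cells of that cluster, which was kept among the T cells. Its part in the Tnfrsf4 ratio was not tested. Of 13 measured dissociation genes, 10 and 12 were at least 2-fold lower (medians -2.23 and -3.00), and of 10 chaperones, 5 and 8 were (medians -0.95 and -2.33), beside the 37.9% and 46.8% of all genes, with Hspa1b at -2.67 and -6.56 and Hspa1a at -1.50 and -6.16. What these lists contribute to the tissue values was not tested.

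**Figure D3:**
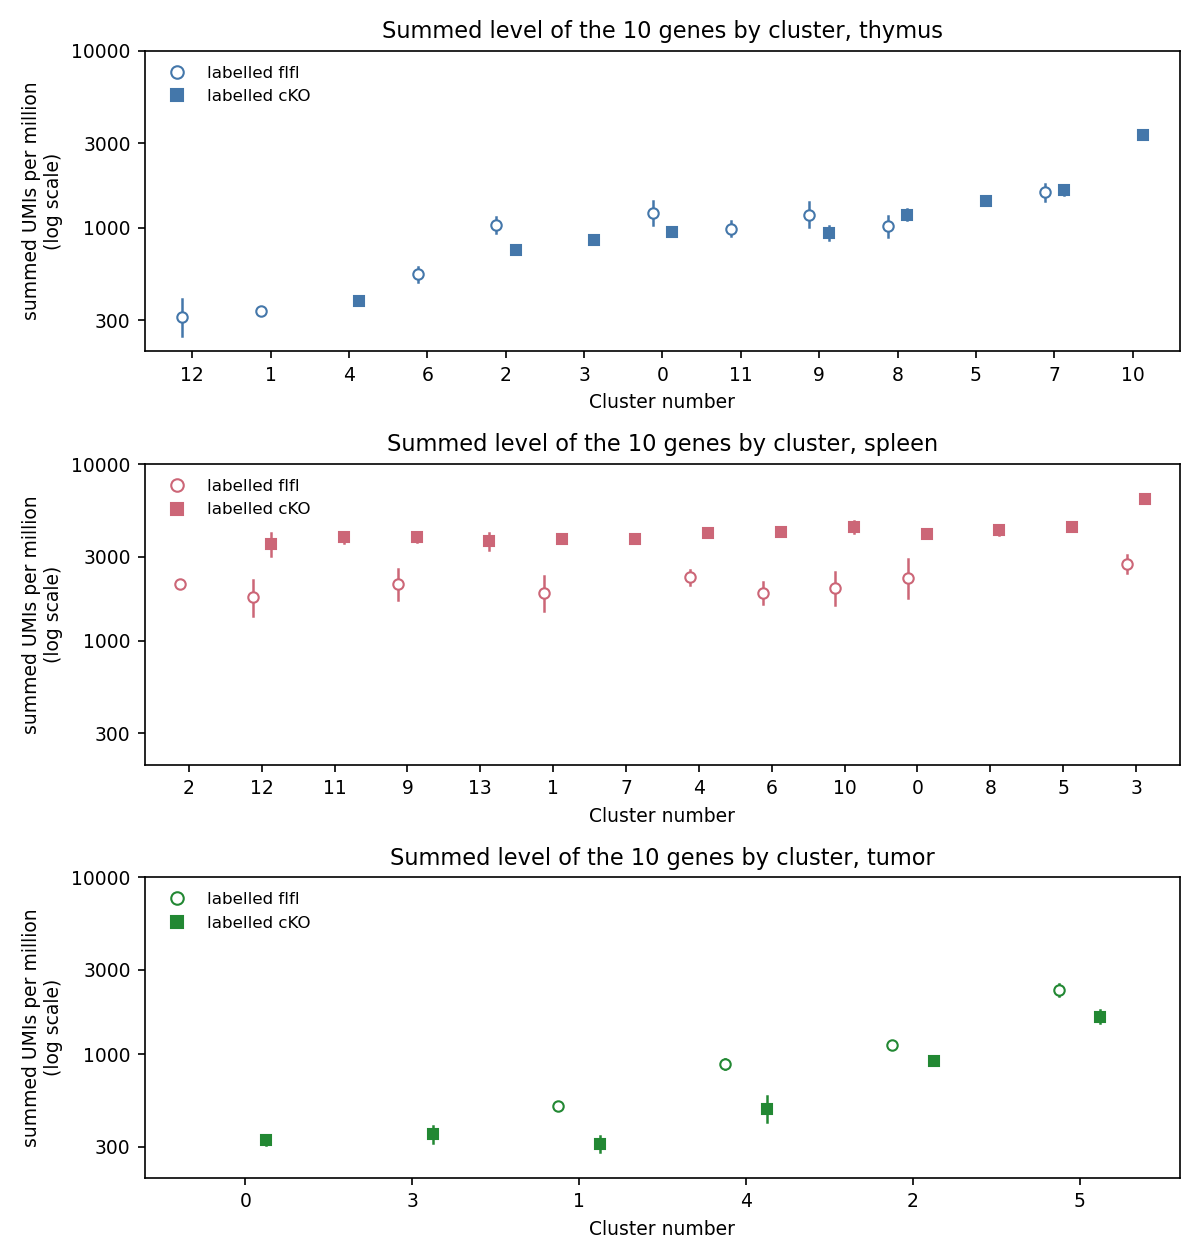
Summed CPM of the 10 genes (log scale) in each cluster, ordered by the level over both libraries, for cells labelled flfl (open circles) and cKO (filled squares) where a cluster holds at least 20 cells of that library; bars are exact Poisson 95% intervals. In spleen the cells labelled cKO lie above those labelled flfl in all 8 clusters with both.

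Cells were also compared 1 by 1, after each cell was thinned to 1000 UMIs so that depth did not set the count. The share of cells with 3 or more of the 10 genes read was 3.37% (2.37 to 4.64) in thymus labelled flfl, 6.07% (5.19 to 7.05) in thymus labelled cKO, 21.7% (19.6 to 23.8) in spleen labelled flfl and 57.4% (56.0 to 58.8) in spleen labelled cKO. In tumor it was 1.05% and 0.213%, or 3 and 1 cells, too few for an order. No cell was shallower than 1000 UMIs, so none was left out. Unthinned, the shares were 36.9%, 59.6%, 36.5%, 79.3%, 67.6% and 34.5%, an order that puts tumor labelled flfl second, with a median of 11027 UMIs per cell. Cells with none of the 10 genes read made up 59.3%, 46.5%, 16.4%, 3.90%, 59.6% and 73.6% after thinning. No cell type in these libraries is known to lack these genes, so no background share could be set beside the shares.

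By gene, thinned cells with a Junb UMI made up 15.9%, 18.9%, 46.5%, 65.9%, 25.4% and 9.17%, and cells with a Jun UMI 5.72%, 11.5%, 21.1%, 44.7%, 0.348% and 1.49%. In spleen labelled cKO the counts were thus spread over many cells, with at most 3.33% of any gene's UMIs in 1 cell. Zfp36 in spleen labelled flfl was less even, with 12.3% of its 342 UMIs in 1 cell, and Egr2 there had 4 of its 23 UMIs (17.4%) in 1 cell.

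Genes whose counts followed the number of the 10 genes read in a cell were ranked by the mean of Pearson's r (log counts) over the 6 libraries, across thinned cells, among 2099 genes read in at least 2% of cells of each library. The 8 highest were Nfkbia, Tnfaip3, H2-K1, Ifrd1, Rab2a, Sertad1, H2-D1 and Pim1, with means from 0.14 down to 0.07. Such weak correlations in sparse counts are a description only.

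Other genes of the same families were read in the same comparisons. In spleen, of 6 measured other AP-1 genes, 2 were at least 2-fold higher labelled cKO (median 0.44; Fosl1 1.87, Fosl2 -0.31), beside 5.07% of all genes higher and 0.676% lower, and the 3 measured other Egr genes and Nab corepressors had a median of 0.14 (Nab1 0.41, Egr3 -0.09). Zfp36l2 and Zfp36l1, which bind the same AU-rich elements, were at 0.04 and 0.00. None of the 5 other dual-specificity phosphatases was past 2-fold (median 0.20; Dusp6 0.79, Dusp10 -0.05). Of 10 upstream kinases and transcription factors (Srf and Elk genes) 1 was, Elk1 (-1.14), with Map2k1 the highest (0.57) and a median of 0.07. In thymus the medians of these lists were 0.19 (Maff 0.55, Fosl1 -1.05), 0.50 (Nab2 0.90, Egr3 -0.30), 0.31 (Zfp36l1 0.69, Zfp36l2 -0.08), 0.57 (Dusp6 1.30, Dusp4 0.21) and 0.08 (Elk1 1.50, Mapk3 -0.78), in the same order. In tumor they were -0.18 (Atf3 0.67, Maff -1.32), 0.22 (Nab2 0.37, Nab1 0.08), -0.68 (both Zfp36l1 and Zfp36l2 near it), -0.22 (Dusp6 -0.06, Dusp4 -0.72) and 0.18 (Elk1 1.54, Mapk8 -0.72). Tumor over spleen, Zfp36l2 was at -4.35 labelled flfl and -5.08 labelled cKO, next to -2.75 and -4.99 for Zfp36, and Jdp2, an AP-1 repressor, was higher (3.18 and 3.10).

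On the GRCm39 build the 10 genes lie on 7 chromosomes, with Fosb and Zfp36 on chromosome 7 and Junb, Jund and Ier2 on chromosome 8. Junb (85701113 to 85705359, minus strand) and Ier2 (85387960 to 85389483, minus strand) are near each other there, and the others are Fos (12), Jun (4), Egr1 (18), Egr2 (10) and Dusp1 (17). Annotated noncoding genes overlap Jun, Junb, Jund and Zfp36 on the other strand, and those of Jun, Jund and Zfp36 are counted as genes of their own. Whether the counting used strand is not given in the sources used here, so reads of these 4 genes and of their antisense partners may not be separable.

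Because 9 of the 10 genes were higher in spleen labelled cKO, the 500 bases before the start of each canonical transcript were searched on both strands for 5 motifs, against the same window of 21757 protein-coding genes. The CArG box, the binding motif of serum response factor, was in the windows of Fos, Fosb and Egr2 and in 2.76% of all windows. The cAMP response element TGACGTCA was in those of Jund, Ier2 and Dusp1 and in 1.96% of all. Its shorter form TGACG, which the longer one contains, was in 9 of 10, all but Zfp36, and in 25.8% of all. The Egr motif GCGNGGGCG was in Fosb, Jun and Jund and in 5.46% of all, and the AP-1 motifs TGACTCA and TGAGTCA were in none of the 10 and in 7.57% of all. A match describes these letters alone. The CArG boxes are printed first because Fos, the gene with the second highest spleen ratio, has one, with the motif in capitals, 5′ to 3′ on the strand of the gene. The Fos stretch is chr12:85520335-85520384 on the plus strand, outside any annotated exon, that of Fosb is chr7:19044213-19044262 on the minus strand, likewise, and those of Egr2 are chr10:67373304-67373353, over an exon of the noncoding gene Gm66196, and chr10:67373607-67373656, both on the plus strand and inside the span of longer Egr2 transcripts.
Fos CArG box: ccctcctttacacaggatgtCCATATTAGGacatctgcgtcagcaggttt
Fosb CArG box: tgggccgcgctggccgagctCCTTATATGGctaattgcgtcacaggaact
Egr2 distal CArG box: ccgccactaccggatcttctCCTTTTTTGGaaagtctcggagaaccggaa
Egr2 proximal CArG box: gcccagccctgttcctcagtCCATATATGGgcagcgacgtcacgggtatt

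The cAMP response elements are printed for Jund, Ier2 and Dusp1, of which Dusp1 was past 2-fold in spleen, with the element in capitals. They lie at chr8:71151365-71151412 on the plus strand for Jund, over exons of the noncoding genes Gm64347 and Gm64349, at chr8:85389499-85389546 on the minus strand for Ier2, outside any annotated exon, and at chr17:26727562-26727609 on the minus strand for Dusp1, over an exon of the noncoding gene Gm56886 and inside the span of a longer Dusp1 transcript. In Ier2 the element begins 43 bases before the start and in Dusp1 96 bases before it.
Jund element: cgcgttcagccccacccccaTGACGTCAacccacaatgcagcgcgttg
Ier2 element: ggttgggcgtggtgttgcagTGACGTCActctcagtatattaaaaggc
Dusp1 element: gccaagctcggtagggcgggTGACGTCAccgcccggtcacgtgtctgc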

How the data were processed

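The deposited files hold raw counts: UMIs per gene and cell barcode for 6 PIPseq libraries, which the authors made with the kit maker's pipeline on the GRCm39 build. The submitters' processing notes name Seurat 4.3.0. From the deposited counts, CPM was computed as the UMIs of a gene over all UMIs of the same cells, times 1e6, after summing the cells of a library. Groups were taken from the labels, and each label of a tissue is 1 library.

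Cells with fewer than 500 genes or 1000 UMIs, or with over 20% mitochondrial counts, were dropped. Clustering was done per tissue, on both libraries together, with Seurat 5.3.0 and sctransform 0.4.2 (Matrix 1.6.5, R 4.3.3; 20 principal components, Louvain, resolution 0.6), without batch correction and leaving out the 10 genes and the pathway lists. A cluster was named from at least 3 markers, and tumor clusters named as another lineage were left out. Where a cluster met 2 names, the class with most markers was kept, a rule set after seeing the data. No doublet caller was run and no doublets were removed.

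Log2 ratios carry exact conditional binomial intervals, with a floor of 3 counts, and no test was made. Shares were taken after thinning each cell to 1000 UMIs (seed 1), with Clopper-Pearson intervals. The ratio step was tested on simulated data. Named were the 10 genes in every comparison, the highest and lowest member of each other pathway list among members with at least 20 UMIs, Nr4a1, Cd69, Hspa1a, Hspa1b and Pdcd1 always, 5 leading genes of a cluster by fold and the 8 genes most like the 10; markers are named as values beside a result. Members and lists were chosen with earlier results of these data known. Alternatives covered the cell filter, the total, median of ratios scaling, equal weight per cell, cells with Cd8a or Cd8b1, cycling-like and Dntt-rich clusters, all tumor cells, resolution and thinning. Python 3.11.15, NumPy 2.4.6, SciPy 1.17.1, pandas 2.3.3 and matplotlib 3.10.9 were used.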

Additional observations from a re-analysis of the deposited data

Results flagged for a closer look

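The same contrast, library labelled cKO over library labelled flfl, went in opposite directions between tissues for 9 of the 10 genes, with intervals of counting error that excluded 0 on both sides. These differences between tissues were not tested, because each label is 1 library per tissue. Pdcd1 RNA, summed over each library, was higher, not lower, labelled cKO in thymus and spleen. In thymus labelled cKO most of that RNA, 85 UMIs, lay in effector-like cluster 5. Fos had a log2 ratio of 1.61 in spleen, -0.36 in thymus and -1.19 in tumor, but without thymic cluster 10 the thymic value was 0.57. Fosb was at 1.06 in spleen and -0.90 in tumor. Jun was at 1.50 in spleen and 0.86 in thymus, and at -0.75 in tumor. Junb was at 0.87 in spleen and -1.32 in tumor, and Jund at 0.56 in spleen and 0.95 in thymus, against -0.25 in tumor. Egr1 was at 0.51 in spleen and -0.81 in thymus, but at 0.44 in thymus without cluster 10, the direction of spleen. Ier2 was at 0.42 in spleen, 0.29 in thymus and -0.44 in tumor. Dusp1 was at 1.18 in spleen, 0.28 in thymus and -0.77 in tumor. Without thymic clusters with more Dntt than Cd8b1, the thymic values of Jun, Ier2 and Dusp1 were -0.15, -0.51 and -0.49. With cluster 10 left out as well, Ier2 and Dusp1 stayed below 0, and Jun was not among the reversed genes. Zfp36 was at 1.70 in spleen and -0.54 in tumor, but at 0.093 in tumor with all filtered cells. Egr2 was not among them, since no interval of its ratios excluded 0.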

How the results depend on the processing

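No paired analysis was possible because each group holds 1 library and the labels carry no replicate numbers. In spleen the median ranged from 0.79 to 0.99, in tumor from -0.86 to -0.53, and in thymus from -0.61 to 0.55. Spleen over thymus it ranged from 0.27 to 2.03 labelled flfl and from 1.68 to 2.61 labelled cKO, and tumor over spleen from -2.82 to -1.58 and from -4.12 to -3.26. Median of ratios scaling moved the cKO tumor over spleen median to -3.26. Without clusters with more Dntt than Cd8b1, the thymus median was -0.61, flfl spleen over thymus 0.27 and cKO spleen over thymus 1.68, and among genes the thymus ratios of Jun (-0.15), Ier2 (-0.51) and Dusp1 (-0.49) and the flfl spleen over thymus ratios of Fosb (-0.27), Egr1 (-1.07) and Dusp1 (-0.12) reversed. Without those clusters and without thymic cluster 10, flfl spleen over thymus was 0.81, and thymus Fos (0.28), Ier2 (-0.49) and Dusp1 (-0.14) reversed. Without cluster 10 alone, thymus Fos (0.57) and Egr1 (0.44) reversed, and without cells with 2 or more stroma UMIs 0.56 and 0.41. These 3 alternatives were chosen after seeing the data. With all filtered tumor cells, tumor Zfp36 (0.093) and flfl tumor over spleen Fos (0.98) reversed, tumor Egr1, whose main interval included 0, went from 0.46 to -0.54, and flfl tumor over spleen Fosb went from -2.86 to -0.00597. The medians of tumor over spleen were then -1.58 labelled flfl and -3.50 labelled cKO. That choice brings in the melanoma-like and macrophage-like clusters. The cause of the other changes was not tested. Of 689 gene values, 467 kept theirs within counting error, 207 moved and 15 reversed.

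Counts past 2-fold moved by over 1.5 times as follows. In spleen 5 became 3 under the strict filter. In thymus none became up to 3 higher without cycling-like clusters, which held mostly cells labelled cKO. Without Dntt-rich clusters 2 became lower, and none was past 2-fold without cluster 10 as well. In tumor 2 lower became 4 with all filtered cells and 3 with the reduced total. With all filtered cells Junb was not among those past 2-fold, as its log2 ratio went from -1.32 to -0.52. In flfl spleen over thymus, 9 higher became 2, with 2 lower, without Dntt-rich clusters, and 3 without cluster 10 as well. Unthinned shares of cells with 3 or more genes were 36.9%, 59.6%, 36.5%, 79.3%, 67.6% and 34.5%. Resolutions 0.3 and 1.0 cannot change the medians of thymus and spleen, where all clusters are used, and gave no values there. Depth limits Egr2 (at most 60 UMIs) and the tumor counts.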
